A study of Homo sapiens with 6 samples.

Results

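The genes described here are the protein-coding genes whose outermost exons lie more than 500 kb apart. Of 19850 protein-coding genes among the 58299 genes of the deposited table, 313 passed this span. Genes with symbols beginning KIF, ADAM or COL, and RYR2, CACNA1C and RAD51B, were dropped, which removed 5 and left 308 members. No expression value entered this choice. The median span was 719 kb, and 67 members were over 1000 kb. RBFOX1, which encodes a neuronal splicing regulator, was the longest with 2474 kb.

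Expression was measured by sequencing polyadenylated RNA of AC16 cells, a human line made by fusing ventricular heart muscle cells with transformed fibroblasts. There were 3 control libraries, from cells kept in 0.1% DMSO for 72 h. The 3 treated libraries came from cells given 100 nM CDDO-Me for 24 h and then 100 nM doxorubicin for 48 h, also 72 h in all; whether CDDO-Me stayed on during doxorubicin is unclear from the labels. CDDO-Me (bardoxolone methyl) is a triterpenoid that modifies KEAP1 and releases the transcription factor NRF2, and the anthracycline doxorubicin poisons topoisomerase II, which leaves breaks in DNA. The series has a single cell line, and since cells given 1 drug alone were not analysed here, the drugs cannot be told apart. The labels do not say that replicates were separate cultures, so p-values reflect only library-to-library spread, which may be technical.

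Very long genes owe their size to introns, so an RNA polymerase must travel for hours to finish a single transcript. Many encode synaptic adhesion proteins, receptors and channels and are best known from the brain, while others, such as the cytoskeletal linkers of muscle and the scaffolds of cell junctions, are used in many tissues. Several lie in common fragile sites, regions where long transcription units and late replication make DNA prone to break, and topoisomerases relieve the twist that transcription of such units creates.

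Libraries held 17150259 to 20193957 counts in genes. Of the markers of heart muscle cells, 3 of 15 (GATA4, TTN and NPPB) passed the filter on low counts, and the cardiac troponin gene TNNI3 had 0 counts in all libraries. All 12 fibroblast markers passed it, so the label of a cardiomyocyte line rests on few of its markers here. Summed fibroblast markers fell from between 16404 and 17761 CPM (counts scaled to library size, with trimmed-mean or TMM factors) in controls to between 7410 and 7832 CPM in treated libraries, and 11 of the 12 were called lower. The part of this in the members' changes was not tested. In bulk RNA, fewer cells of a type and less RNA per cell cannot be told apart.

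The summed level of these genes was lower in treated libraries, but more of them had a count. CPM are relative to each library, so amounts of RNA per cell were not measured. The summed level of the 308 members was 4701, 4532 and 4884 CPM in controls and 3237, 3483 and 3396 CPM in treated libraries. The controls were all above the treated libraries, with a mean of 4706 ± 176 CPM against 3372 ± 125 CPM (SD, n = 3), a ratio of 1.40. In contrast, 200, 208 and 208 members had a count in the control libraries and 291, 290 and 293 in the treated ones. Such a rise was not particular to the members. Of 6678 other coding genes that did not pass the filter, 1556 to 1609 had a count in controls and 3750 to 3829 in treated libraries. Members of at least 1 CPM numbered 146 to 147 in controls and 168 to 171 after treatment. The sum is carried by well-expressed members, most of which fell, and the number detected by members near 0 in controls.

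Promoters of 4 members described in detail, a pair that fell and a pair that rose, are shown, from the RefSeq table for GRCh38.p14, each covering 250 bases before to 50 after the start of transcription. PRKCA (chr17:66302363-66302662, plus strand) and NRXN3 (chr14:78170123-78170422, plus strand) fell, and RELN (chr7:103989609-103989908, minus strand) and MAST4 (chr5:66596143-66596442, plus strand) rose. Capitals mark the CG dinucleotides, the sites of CpG methylation.
PRKCA: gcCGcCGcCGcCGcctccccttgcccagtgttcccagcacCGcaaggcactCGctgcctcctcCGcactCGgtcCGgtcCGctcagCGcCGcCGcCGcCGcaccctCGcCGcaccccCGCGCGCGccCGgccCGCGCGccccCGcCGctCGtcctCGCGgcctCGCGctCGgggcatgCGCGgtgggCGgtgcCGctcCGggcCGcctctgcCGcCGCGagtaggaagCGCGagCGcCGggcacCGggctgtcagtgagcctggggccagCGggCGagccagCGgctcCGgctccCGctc
NRXN3: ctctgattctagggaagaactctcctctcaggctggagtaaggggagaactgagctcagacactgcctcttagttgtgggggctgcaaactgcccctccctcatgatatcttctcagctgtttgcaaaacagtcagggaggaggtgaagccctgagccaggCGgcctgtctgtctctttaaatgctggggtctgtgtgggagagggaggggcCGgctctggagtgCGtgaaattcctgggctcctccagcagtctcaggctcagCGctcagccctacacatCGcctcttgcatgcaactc
RELN: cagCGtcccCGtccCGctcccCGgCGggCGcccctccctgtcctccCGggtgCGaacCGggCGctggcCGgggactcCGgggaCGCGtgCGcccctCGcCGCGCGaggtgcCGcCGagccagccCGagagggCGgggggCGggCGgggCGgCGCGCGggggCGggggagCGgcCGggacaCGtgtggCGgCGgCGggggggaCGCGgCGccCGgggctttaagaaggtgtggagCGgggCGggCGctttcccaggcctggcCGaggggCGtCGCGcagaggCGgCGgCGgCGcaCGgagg
MAST4: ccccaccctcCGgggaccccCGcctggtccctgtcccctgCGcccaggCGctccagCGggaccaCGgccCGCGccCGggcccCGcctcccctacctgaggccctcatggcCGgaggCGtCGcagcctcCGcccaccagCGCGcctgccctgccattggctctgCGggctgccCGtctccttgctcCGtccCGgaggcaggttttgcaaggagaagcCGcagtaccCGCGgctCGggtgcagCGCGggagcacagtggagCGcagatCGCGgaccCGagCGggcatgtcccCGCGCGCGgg
PRKCA and RELN changed in opposite directions with equally CG-rich promoters: each holds 52 CG dinucleotides, with observed over expected ratios of 1.08 and 1.03. MAST4 holds 35 (ratio 0.81), and NRXN3 holds 5 (ratio 0.21).

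After the filter (minimum count 10, by group), 192 of the 308 members could be tested, 62.3%, against 65.8% of all coding genes. Of these, 65 were called higher in treated cells, 74 lower and 53 neither (edgeR quasi-likelihood test, Benjamini-Hochberg adjusted p under 0.05 over all 15575 tested genes). Of all tested genes, 63.5% were called, 32.3% higher and 31.2% lower. The members' shares were 72.4%, 33.9% and 38.5%, so the share called higher was near the background. Sizes differed more than counts: 46 members (24.0%) rose and 30 (15.6%) fell at least 2-fold, where 10.9% and 4.62% of all tested genes did. At least 4-fold, 30 members rose (15.6%, all tested genes 4.32%) and 3 fell (1.56%, all tested genes 0.559%). These rises include members that passed the filter through treated libraries alone. At a mean of 10 CPM or more, 4.49% of members and 4.50% of coding genes rose at least 2-fold. At that level 24.7% and 4.19% fell at least 2-fold. Groups did not overlap in 146 members (76.0%, all tested genes 66.7%).

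The median log2 change, treated minus control, was -0.07 over the members (0.05 without control replicate 3) and -0.00 over all 13056 tested coding genes, close together. The spread was not: the middle of the members' distribution, from the lower to the upper quartile, ran from -0.68 to 0.91, a width of 1.59 against 0.73 for all coding genes. Single members ranged from -2.39 to 8.47, the latter a fitted value for a gene at 0 in controls and no measure of its size. Called-higher members started low, with a median control level of 0.50 CPM and a median treated level of 2.31 CPM, and 38 of the 65 were under 1 CPM in controls. Called-lower members started high, with medians of 27.6 CPM in controls and 15.6 CPM in treated cells, and 57 of the 74 had at least 10 CPM in controls. The filter treats both groups alike, and without it 120 members were called higher and 74 lower. With it, 29 members passed with no control library at its limit, and none with no treated library at it. Of these 29, 28 were called higher, but passing in this way required a difference. A member at 0 in controls could not fall at all. Among the other 163 members, some of which had only 1 control library at the limit, 37 were called higher, 74 lower and 52 neither, with a median of -0.19.

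**Figure D1:**
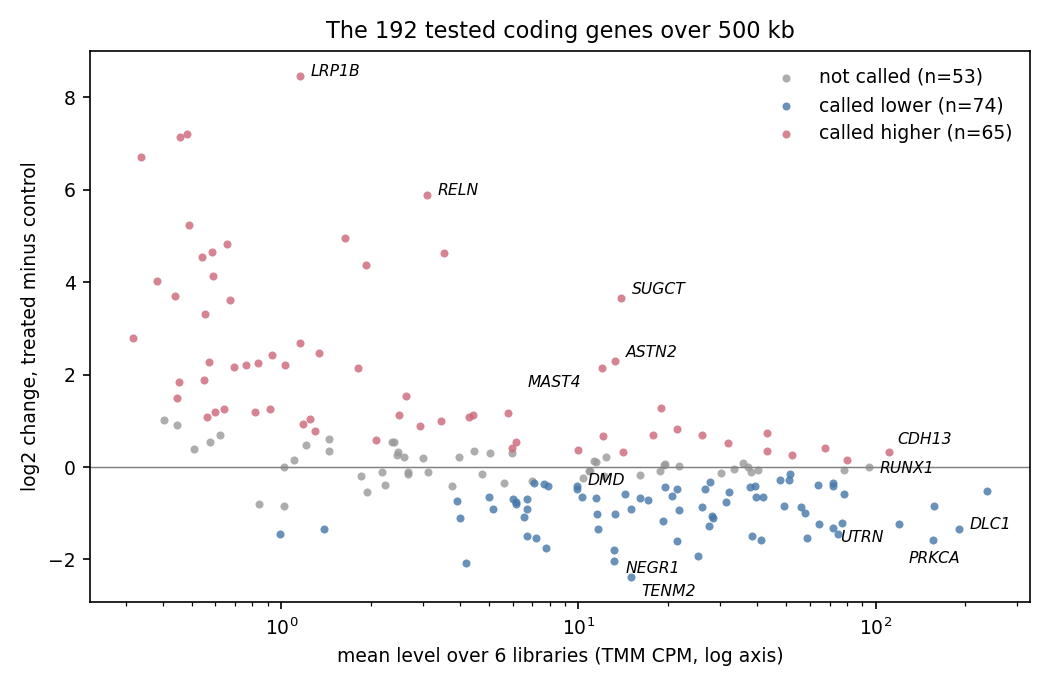
Mean level over the 6 libraries (horizontal, CPM on a log axis) and log2 change, treated minus control (vertical), of the 192 tested members, each point a member coloured by its edgeR call. Points fan out upwards at low levels, with LRP1B highest at 8.47, and most called-lower members lie at the right, down to TENM2 at -2.39.

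The best expressed members mostly fell. Per base of exon, SPOCK1 had the highest level of the 6 members with the highest mean CPM, with 44.9 RPKM (CPM per kb of exon) in controls and 31.3 in treated cells. SPOCK1, which encodes a secreted proteoglycan (testican), had 280, 268 and 291 CPM in controls and 183, 214 and 187 CPM in treated cells. All treated libraries were below all controls, and the log2 change was -0.52 (SE 0.05, edgeR adjusted p 5.43e-14). DLC1, which encodes a GTPase-activating protein and tumour suppressor, had 287, 246 and 286 CPM in controls and 108 CPM in each treated library. This was a log2 change of -1.34 (SE 0.05, edgeR adjusted p 2.38e-32), with the treated libraries closer together than the controls.

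PRKCA (chr17:66302636-66810743 on GRCh38) encodes protein kinase C alpha, a calcium- and lipid-activated kinase that tempers contractility in heart muscle. Its level was 231, 222 and 249 CPM in controls and 74.9, 82.9 and 78.0 CPM in treated cells. The groups were far apart, with a log2 change of -1.58 (SE 0.05, edgeR adjusted p 1.26e-35), or from 21.0 to 7.05 RPKM. ERC1, which encodes a scaffold of vesicle docking and focal adhesion turnover, had 205, 194 and 206 CPM in controls and 106, 119 and 114 CPM after treatment (log2 change -0.84, SE 0.05, edgeR adjusted p 1.55e-22). UTRN encodes utrophin, the relative of dystrophin that links actin to the membrane complex outside mature muscle fibres. It had 168, 161 and 175 CPM in controls and 67.0, 75.4 and 73.1 CPM after treatment (log2 change -1.22, SE 0.05, edgeR adjusted p 2.14e-29).

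CDH13 was the exception among these 6. It encodes T-cadherin, a cadherin anchored by a lipid that binds adiponectin, and had 105, 94.0 and 98.1 CPM in controls and 119, 124 and 127 CPM in treated cells. The groups did not overlap, and the log2 change was 0.32 (SE 0.05, edgeR adjusted p 4.85e-07). Including CDH13, 12 called-higher members had at least 10 CPM in controls. The rest of these, chosen after their values were seen, include SYNE1, which encodes the nuclear envelope protein nesprin-1 (32.4 to 54.1 CPM), and PCDH9, a protocadherin gene (11.1 to 26.9 CPM).

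The 12 largest decreases, among called members averaging at least 1 CPM whose groups did not overlap, were led by adhesion and guidance genes. TENM2 (chr5:167284799-168264157), which encodes a teneurin, a large transmembrane partner of latrophilins at synapses, had 24.1, 26.1 and 25.8 CPM in controls and 4.48, 4.48 and 5.52 CPM in treated cells. Its log2 change of -2.39 (SE 0.11, edgeR adjusted p 1.27e-27) was the largest decrease of any tested member. SLIT3, which encodes a secreted ligand of Robo receptors, had 7.58, 5.74 and 6.98 CPM in controls and 0.87, 2.21 and 1.70 CPM in treated cells. The treated libraries differed among themselves more than 2-fold, but all lay below the controls (log2 change -2.09, SE 0.22, edgeR adjusted p 5.05e-13). KIRREL3, an immunoglobulin-family adhesion gene, fell from 22.2, 20.9 and 20.6 CPM to 5.15, 5.86 and 4.58 CPM, a log2 change of -2.03.

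NEGR1, which encodes a lipid-anchored adhesion protein of the IgLON family, had 40.3, 36.3 and 43.6 CPM in controls and 11.0, 11.1 and 9.44 CPM in treated cells (log2 change -1.93, SE 0.09, edgeR adjusted p 7.88e-28). FAT3, a giant cadherin gene, went from a mean of 20.4 to 5.92 CPM (-1.79 on the log2 scale). NRXN3, which encodes a presynaptic neurexin, went from 11.1, 10.3 and 14.4 CPM to 2.46, 4.04 and 4.15 CPM (log2 change -1.75, SE 0.16). Its low-CG promoter is the NRXN3 sequence printed above. Enzyme genes were also among the 12. PDE1C, which encodes a calcium-stimulated phosphodiesterase, fell from a mean of 32.3 to 10.7 CPM (log2 change -1.60). DPYD, whose product is the first enzyme of pyrimidine breakdown, fell from 61.5 to 20.7 CPM (log2 change -1.57, SE 0.07, edgeR adjusted p 6.54e-29). The neuroligin gene NLGN1 (-1.54), the teneurin gene TENM3 (-1.53) and the cadherin gene CDH18 (-1.503) complete the set with PRKCA.

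The 12 largest increases under the same rule mostly began near 0. RELN (chr7:103471784-103989516), which encodes reelin, a secreted protein that guides neuron migration, had 0.057, 0.12 and 0.11 CPM in controls and 6.36, 6.59 and 5.28 CPM in treated cells, that is 5 counts against 378 over each group. No treated library came near the controls, and the log2 change was 5.90 (SE 0.37, edgeR adjusted p 2.92e-22). TENM4, another teneurin gene, had 0.34, 0.30 and 0.16 CPM in controls and 6.70, 6.79 and 6.94 CPM in treated cells (log2 change 4.64, SE 0.29, edgeR adjusted p 4.44e-22). OPCML, which like NEGR1 encodes an IgLON adhesion protein, went from 0.17, 0.060 and 0.27 CPM to 3.57, 4.04 and 3.44 CPM (log2 change 4.37).

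SUGCT, ASTN2 and MAST4 rose from levels above 1 CPM and reached about 20 CPM or more. SUGCT (chr7:40134977-40860763) encodes a mitochondrial enzyme that makes glutaryl-CoA from glutarate. It had 1.32, 2.60 and 2.22 CPM in controls and 25.9, 27.9 and 23.5 CPM in treated cells, or 0.72 and 9.02 RPKM, a log2 change of 3.65 (SE 0.14, edgeR adjusted p 4.56e-32). ASTN2 encodes an astrotactin, which controls surface levels of adhesion proteins in migrating neurons, and had 4.14, 4.72 and 4.71 CPM in controls and 22.6, 23.4 and 20.4 CPM in treated cells (log2 change 2.29, SE 0.12, edgeR adjusted p 1.10e-25). MAST4 encodes a microtubule-associated kinase. It had 4.42, 4.66 and 4.22 CPM in controls and 18.9, 19.2 and 20.7 CPM in treated cells (log2 change 2.14, SE 0.12, edgeR adjusted p 7.04e-24).

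The others of the 12 had smaller levels. AKAP6, the gene of the muscle anchoring protein mAKAP, which holds protein kinase A at the nuclear envelope, went from 0.34, 0.36 and 0.22 CPM to 1.93, 2.46 and 1.60 CPM (log2 change 2.68, SE 0.41, edgeR adjusted p 5.82e-08). The sorting receptor gene SORCS2 went from 0.41 to 2.27 CPM (log2 change 2.47, and 3.30 without control replicate 2). DLGAP1, a postsynaptic scaffold gene, went from 0.36 to 1.71 CPM (log2 change 2.21, and 2.86 without control replicate 1). RORA, which encodes a nuclear receptor tied to the circadian clock, went from 0.67 to 2.95 CPM (log2 change 2.13, SE 0.31).

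**Figure D2:**
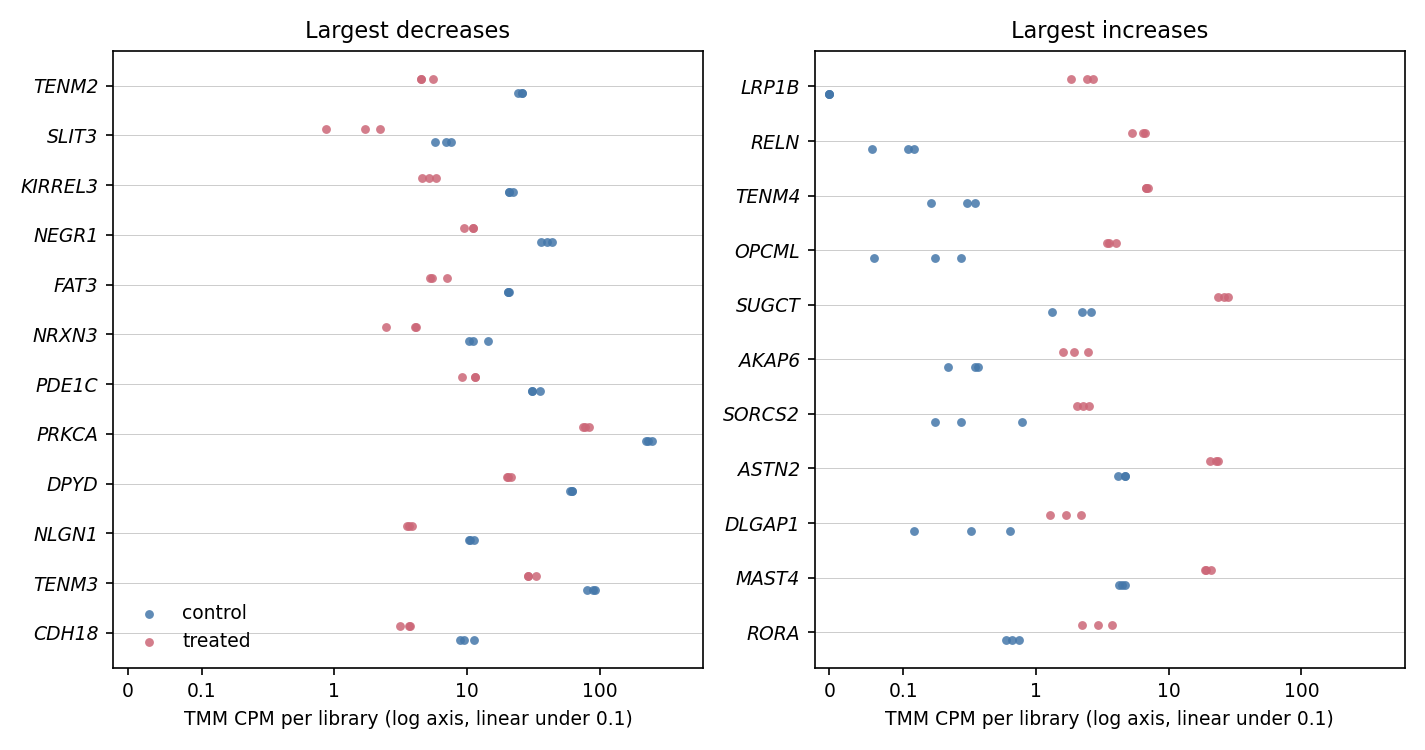
CPM of the members described with the largest decreases (left) and the largest increases (right) in each control and treated library, on a log axis that is linear under 0.1, each point a library. The groups are apart for every gene, as the rule requires, and the decreases start between 6.77 and 234 CPM in controls and the increases between 0 and 4.52 CPM.

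Members at or near 0 in controls need counts rather than fitted changes. LRP1B (chr2:140231423-142131701), which encodes a giant relative of the LDL receptor and lies in a fragile site, had 0 counts over the 3 controls and 144 over the 3 treated libraries. Against a floor of 3 counts over the group the ratio was 40.4 (interval from 32.4). The glycosyltransferase gene MGAT4C had 0 against 60 counts (floor ratio 16.8, interval from 13.3). CSMD3, a gene of a large membrane protein with complement-like repeats, had 0 against 57 (floor ratio 16.0, interval from 12.6). PTPRD, which encodes a receptor phosphatase that organises synapses, had 0 against 42 (floor ratio 11.8, interval from 9.17). Each of these 4 was called higher, and each had counts in all treated libraries.

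Another 7 called-higher members had 1 to 3 control counts. PLCB1, a phospholipase C gene of receptor signalling, had 2 against 70 counts, a ratio of 29.5 after normalisation with an exact 95% counting interval of 7.86 to 248. The IgLON gene LSAMP had 2 against 65 (27.4, interval 7.28 to 231). For the glutamate receptor gene GRM8 the counts were 2 against 45 (18.9, interval 4.95 to 161). Such intervals are wide and cover counting error only, and their upper ends have little meaning at so few control counts. Fitted changes of genes with few control counts moved with single libraries. That of ATP8A2, a phospholipid flippase gene with 4 control counts, was 2.78 and became 6.45 without control replicate 3, which held all of its control counts. In the same way LSAMP had 4.56 and, without control replicate 3, 7.33. PLCB1 and GRM8 had 4.66 and 4.03 and, without control replicate 2, 7.47 and 6.83.

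The 116 members that could not be tested also had more counts in treated cells. Summed, they held 55, 56 and 70 counts in controls and 557, 611 and 615 in treated libraries, a normalised ratio of 8.29, and the groups were far apart. Of the 116, 107 had more in treated cells and 5 had less, 78 were at 0 in controls, and 4 were at 0 in all libraries. In 76 (65.5%) every treated library was above every control, which held for 23.5% of the 6678 other untested coding genes, whose summed ratio was 2.96. Levels stayed very low: the fragile-site gene FHIT had 1 against 14 counts, and the fragile-site genes CTNNA3 and MACROD2 had 0 against 26 and 4 against 32. ERBB4, the neuregulin receptor gene of heart muscle cells, had 11 against 47 counts.

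**Figure D3:**
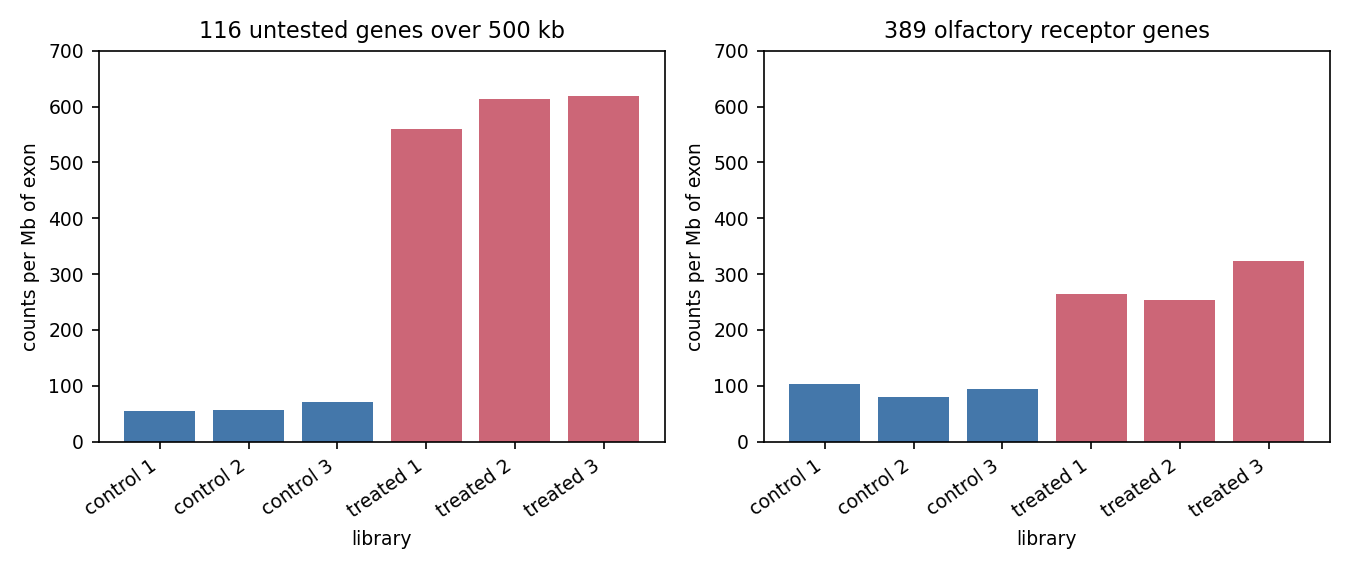
Counts per megabase of exon in each library, as bars, for the 116 untested members (left) and the 389 olfactory receptor genes (right). The untested members go from between 55.3 and 70.4 in controls to between 560 and 618 in treated libraries, and the olfactory receptor genes are higher in all treated libraries too.

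Other near-silent genes also had more counts in treated libraries. Per megabase of exon, the untested members had 55.3, 56.3 and 70.4 counts in controls and 560, 614 and 618 in treated libraries. Other untested coding genes had 232, 219 and 241 in controls and 824, 764 and 847 in treated libraries. The 389 olfactory receptor genes, which few tissues outside the nose use and which were chosen as a comparison after the data were seen, had 104, 79.7 and 95.0 in controls and 264, 253 and 324 in treated libraries, a ratio of 2.55. Of the 116 untested members, 80 were above 324 counts per megabase per library in treated cells, the highest value of the pooled olfactory receptor genes. The share of other untested coding genes above this limit was not counted. Their pooled values of 764 to 847 were above it as well, so the count of 80 does not set the members apart. Among tested members, which the filter holds to higher counts, RELN stood at 9967, LRP1B at 2817 and PTPRD at 1254. The part of this general difference in the members' changes was not tested.

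Beside the brain genes among the risers, 12 neuron markers were counted. Their summed level was 21.2 to 24.2 CPM in controls and 24.5 to 25.4 CPM in treated libraries. Of these, 8 could be tested and 2 were called higher, the neurofilament genes NEFM and NEFL, with the rest of the tested ones not called. The untested ones had few counts, and more in treated cells: STMN2 0 against 15, ELAVL4 0 against 14, ELAVL3 1 against 21 and RBFOX3 2 against 7. Most of the sum lay in MAP2 (8.92 to 8.14 CPM), SNAP25 (7.83 to 6.66 CPM) and TUBB3 (3.24 to 2.89 CPM), so it says little about the low markers.

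The direction of the members followed their level. Of the 33 tested members with a mean under 1 CPM over all libraries, 26 were called higher and 1 lower (median log2 change 2.20), where the 849 coding genes of that level had a median of 0.92 and 48.2% higher. Between 1 and 10 CPM, 23 of 70 members were higher and 20 lower, with a median of 0.20, next to 0.19 for 2753 coding genes. The medians were alike but the shares were not: 32.9% of the members were higher and 28.6% lower, against 36.0% and 17.9% of the coding genes. At 10 CPM or more, 16 of 89 members were higher and 53 lower (59.6%) with a median of -0.42, where 9454 coding genes had a median of -0.06 and 42.5% lower. At that level 24.7% of the members and 4.19% of the coding genes fell at least 2-fold, whereas the shares that rose at least 2-fold were alike, 4.49% and 4.50%. Across the 192 members, Spearman's rank correlation of the log2 change with mean level was -0.59, and -0.26 over all tested coding genes. Both measures come from the same libraries, so these are descriptions. A member near 0 in controls was tested only if it rose enough to pass the filter. Of the 116 members that did not pass, 107 also had more counts in treated cells.

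**Figure D4:**
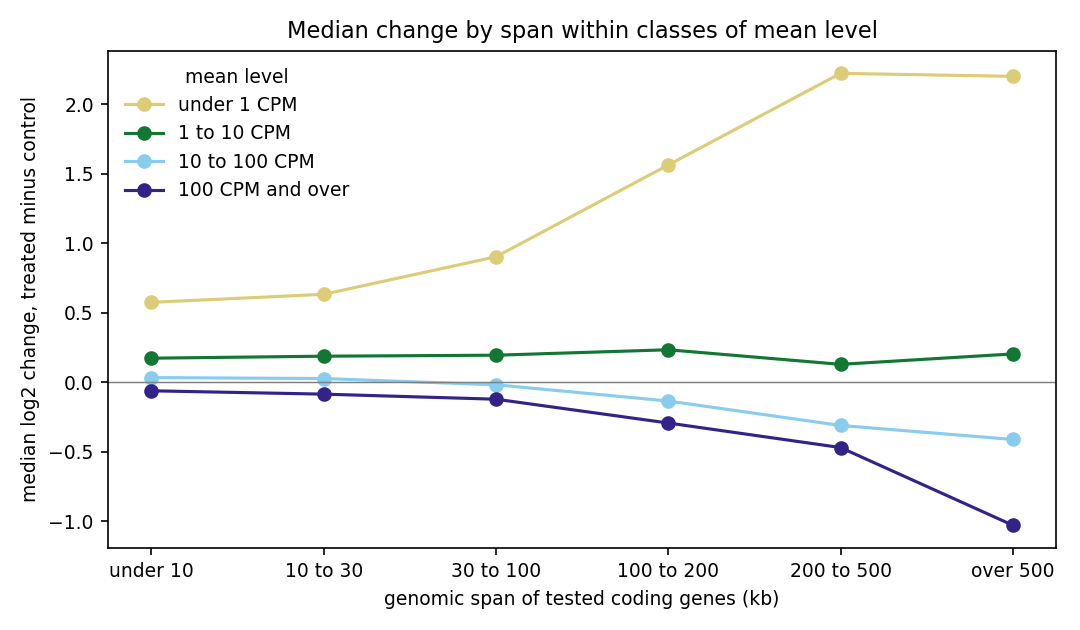
Median log2 change (treated minus control) of tested coding genes by genomic span, with a line for each class of mean level, the last point of each being the members. Both lines above 10 CPM go down with span, to -0.41 and, for only 6 members of 100 CPM and over, -1.03. The line under 1 CPM goes up, to 2.20, but there genes near 0 in controls were tested only if their treated libraries passed the filter.

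Coding genes of all lengths were split in the same way, and the medians followed span in opposite directions at low and at high levels. Between 10 and 100 CPM, medians were 0.03, 0.03, -0.02, -0.14 and -0.31 in coding genes with spans under 10 kb, of 10 to 30, 30 to 100, 100 to 200 and 200 to 500 kb, and -0.41 in the 83 members. The shares called lower were 34.1, 33.6, 36.7, 48.0 and 63.2%, and 57.8% for the members, which thus did not exceed the class below them in that share. They did in size: 22.9% of the members fell at least 2-fold, against 11.7% at 200 to 500 kb. The shares that rose at least 2-fold were 4.82% and 2.67%. Under 1 CPM, medians went from 0.57 in the shortest genes to 2.22 at 200 to 500 kb and 2.20 in the members. In that class a gene near 0 in controls was tested only if its treated libraries passed the filter. The part of the filter in this trend was not tested. Over all levels the median fell from 0.07 under 10 kb to -0.21 at 200 to 500 kb, and the members' -0.07 lay between. Total-count scaling moved the median of all tested genes from 0.02 to 0.15 and the members' from -0.07 to 0.06, so the sign of these medians near 0 depends on the scaling, while the order of the 5 shorter classes did not change with it.

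**Figure D5:**
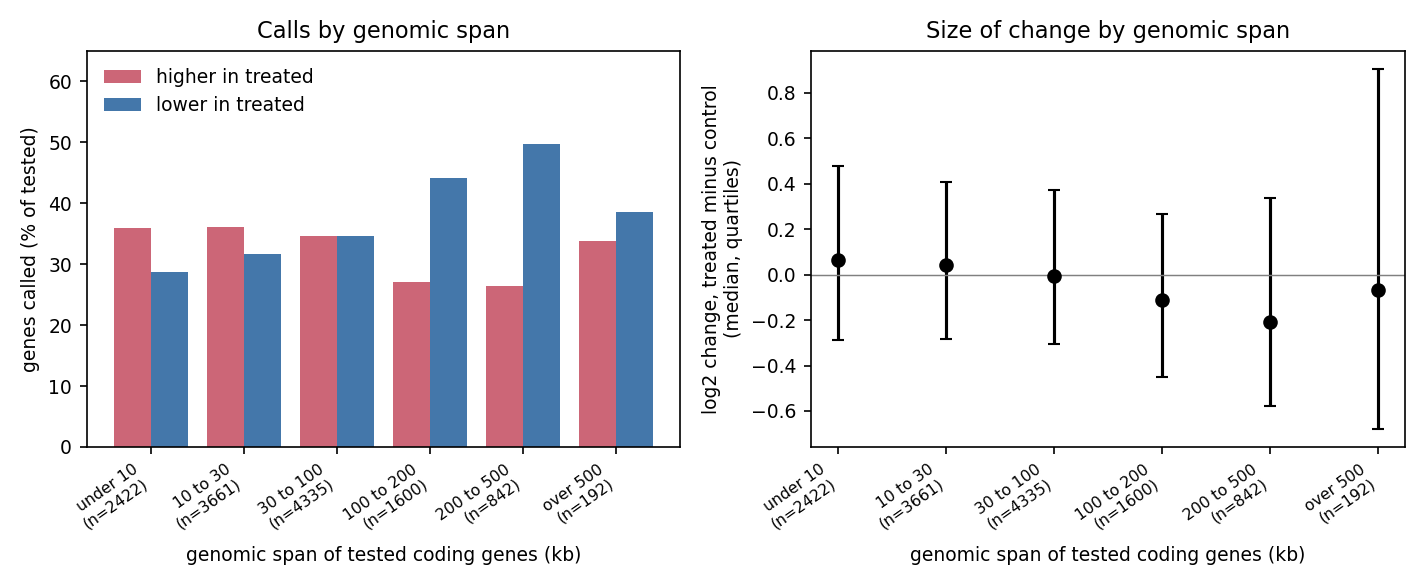
Tested coding genes by genomic span, with the percentages called higher and lower (left, bars) and the median log2 change, treated minus control, with its quartiles (right). The class over 500 kb, the members, has a median of -0.07, the widest quartiles, from -0.68 to 0.91, and 33.9% higher against 38.5% lower.

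Among the members themselves, medians did not follow span closely. They were -0.13 for 70 tested members of 500 to 600 kb, -0.18 for 56 of 600 to 800 kb, 0.02 for 34 of 800 to 1000 kb and 0.31 for 32 over 1000 kb. The last class also had the lowest median level, 5.12 CPM. Spearman's rank correlation of the log2 change was 0.11 with span and 0.12 with exonic length, as descriptions over 192 genes. On either side of the 500 kb threshold, the nearest members were AFF2 (2 against 20 counts), SPOCK3 (0.50 to 1.14 CPM) and KCNAB1 (1.56 to 3.40 CPM). The nearest genes outside were DIAPH3 (128 to 38.3 CPM), CACNA2D1 (35.9 to 18.3 CPM) and RPS6KA2 (22.98 to 17.4 CPM).

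The longest tested members included genes with no call as well as genes that rose. DMD, the dystrophin gene, spans 2242 kb (chrX:31097677-33339441 on GRCh38) and had 9.88, 12.2 and 11.0 CPM in controls and 11.6, 11.2 and 12.98 CPM in treated cells. The groups overlapped, and the log2 change of 0.11 (SE 0.12) did not pass the test (edgeR adjusted p 0.401). DLG2, a synaptic scaffold gene of 2173 kb, had 0.48 and 0.77 CPM and was not called (edgeR adjusted p 0.179). EYS, a photoreceptor matrix gene of 1987 kb, went from 0.28 to 1.39 CPM and was called (log2 change 2.25, and 3.47 without control replicate 3, edgeR). PDE4D, which encodes a cyclic AMP phosphodiesterase of heart muscle, spans 1553 kb and had 2.87, 2.06 and 3.30 CPM in controls and 6.55, 5.22 and 5.66 CPM in treated cells (log2 change 1.07, SE 0.19, edgeR adjusted p 1.64e-06). PTPRD, LRP1B and NRXN3, described above, are also among the 8 longest.

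By role, synaptic adhesion and guidance genes split within their families. Of 37 members on this list 19 were tested, 5 rose, 11 fell and 3 did not pass, with a median log2 change of -1.11 beside -0.07 over all tested members. For this list and those below, the background is 32.3% higher and 31.2% lower over all tested genes. The untested members of the list were low, and all had more counts in treated cells except CNTN5 (19 against 17). Among teneurins, TENM2 and TENM3 fell from 2.29 and 7.26 RPKM to 0.44 and 2.52, TENM4 rose from 0.017 to 0.42 RPKM, and TENM1 had 0 against 43 counts without a test. Among IgLON genes, NEGR1 fell from 2.99 to 0.78 RPKM and NTM from 0.21 to 0.08, while OPCML rose from 0.022 to 0.49 RPKM and LSAMP from 0.0035 to 0.10. ROBO1, a receptor of SLIT ligands, fell with SLIT3, from 102, 98.7 and 107 CPM to 36.9, 44.1 and 42.1 CPM (log2 change -1.32, SE 0.06, edgeR adjusted p 4.83e-28). NTM, TENM1 and ROBO1 were chosen after their values were seen.

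Cadherins and junction proteins had 25 members, of which 16 were tested, 4 rose, 9 fell and 3 did not pass (median -0.37). FAT3 and CDH18 were the largest decreases of this list and PTPRD the largest increase. Among 21 genes of the dystrophin complex, spectrin-linked and other cytoskeletal proteins, 14 were tested, 3 rose, 7 fell and 4 did not pass (median -0.51). Utrophin and dystrophin thus differed: UTRN fell while DMD showed no call, and their difference was not tested. DOCK1, which encodes an activator of the GTPase Rac, had 93.4, 87.6 and 89.5 CPM in controls and 37.0, 38.6 and 40.0 CPM in treated cells (log2 change -1.23, SE 0.06, edgeR adjusted p 9.25e-27), and MAST4 was the largest increase.

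Of all tested genes, 32.3% were called higher and 31.2% lower, the background for lists of so few genes. Of 19 kinases, phosphatases and growth factor genes 17 were tested, 7 rose, 4 fell and 6 did not pass (median 0.49). ALK, a receptor tyrosine kinase gene of the nervous system, went from 0.17, 0.060 and 0.054 CPM to 0.87, 1.28 and 1.60 CPM. Its log2 change was 3.63 (SE 0.57, edgeR adjusted p 1.30e-07), and 4.30 without control replicate 1. NRG1, the gene of the growth factor neuregulin-1, had 76.3, 70.1 and 81.0 CPM in controls and 84.3, 85.8 and 84.2 CPM in treated cells. This small rise of 0.16 (SE 0.06, edgeR adjusted p 0.0135) was lost without control replicate 2 (0.10, adjusted p 0.198) and without the filter on low counts (0.14, adjusted p 0.0573). PRKG1, the gene of the cyclic GMP-dependent kinase, had 2.79 and 3.20 CPM and was not called (edgeR adjusted p 0.433).

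Phosphodiesterases had 4 members, all tested: PDE4D rose, PDE1C and PDE10A fell and PDE4B did not pass. The change of PDE10A, -0.41 (SE 0.14, edgeR adjusted p 0.00725), was no longer called with total-count scaling (-0.29, adjusted p 0.0651) or without control replicate 1 (-0.28, adjusted p 0.104). Of 8 glutamate and GABA receptor genes only 3 were tested and 2 rose, GRM8 among them. GRIK2 had 2.77 and 2.57 CPM and was not called (edgeR adjusted p 0.713). Of 10 ion channel genes 6 were tested, and 1 rose, 1 fell and 4 did not pass. TRPM3, which encodes a heat- and steroid-sensing cation channel, rose from 0.46, 0.73 and 0.43 CPM to 1.49, 1.38 and 0.99 CPM (log2 change 1.25, SE 0.40, edgeR adjusted p 0.00475). RYR3, a calcium release channel gene, had 4.28 and 3.24 CPM and was not called (-0.40, edgeR adjusted p 0.0731), but was called without control replicate 1 (-0.56, adjusted p 0.0193). The channel subunit gene CACNA2D3 had 0.44 and 0.58 CPM and was not called (edgeR adjusted p 0.489).

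Transcription factor, chromatin and RNA-binding genes went both ways, with 20 of 26 tested, 7 higher, 6 lower and 7 not passing (median -0.04). RUNX1, which spans 1217 kb and encodes a transcription factor of blood and mesenchymal cells, had 99.3, 88.7 and 96.7 CPM in controls and 88.9, 99.4 and 95.8 CPM in treated cells. The groups overlapped (log2 change -0.00, SE 0.06, edgeR adjusted p 0.954), and with total-count scaling the value was 0.12 (adjusted p 0.0468). FOXP1 fell from 34.3, 36.3 and 43.4 CPM to 24.3, 25.7 and 28.6 CPM (log2 change -0.54, SE 0.08, edgeR adjusted p 5.50e-08). Its relative FOXP2, a forkhead factor gene linked to speech, went up from 0.27 to 1.25 CPM (2.20 on the log2 scale, SE 0.46). ESRRG, an orphan nuclear receptor gene of oxidative metabolism in heart muscle, rose as well, from 0.23 to 0.87 CPM (1.89, SE 0.51). AUTS2, whose product acts in a Polycomb complex in neurons, had 5.05, 5.14 and 4.93 CPM in controls and 6.70, 6.64 and 8.64 CPM in treated cells (log2 change 0.54, SE 0.15, edgeR adjusted p 0.00173). ZBTB20, a zinc finger repressor gene, was not called (0.25, edgeR adjusted p 0.422), and 49.7% of its exon bases lie in exons of another gene, which unstranded counts cannot separate.

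A list of matrix and secreted protein genes, which also holds membrane protein and glycosyltransferase genes, had 23 members and 14 tested. Of these 14, 7 rose, 4 fell and 3 did not pass (median 0.59). Among genes of secreted proteins, RELN rose while SLIT3 and SPOCK1 fell. The LDL receptor relative LRP1B, the membrane protein gene CSMD3 and the glycosyltransferase gene MGAT4C rose from 0 control counts. Transport and trafficking genes had 22 members and 18 tested, with 6 higher, 8 lower and 4 not passing (median -0.15). EXOC4, which encodes a subunit of the exocyst that tethers secretory vesicles, fell from 72.1, 72.9 and 71.8 CPM to 38.0, 40.6 and 41.0 CPM (log2 change -0.86, SE 0.06, edgeR adjusted p 4.89e-19). STXBP5L, a vesicle fusion regulator gene, rose from 0.19 to 0.95 CPM (log2 change 2.27, SE 0.55). CADPS2, a dense-core vesicle gene, had means of 0.23 and 0.66 CPM and rose by 1.498 (SE 0.53, edgeR adjusted p 0.0115), which was not called without treated replicate 1 (1.31, adjusted p 0.0659).

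Genes in fragile sites, which overlap the other lists, had 37 members and 25 tested, with 11 higher, 8 lower and 6 not passing (median 0.32), to be read beside the 32.3% and 31.2% of all tested genes. WWOX, the oxidoreductase gene of the fragile site FRA16D, had 5.86, 5.20 and 4.98 CPM in controls and 6.46, 7.33 and 5.99 CPM in treated cells. The treated libraries were all higher but close to the controls, and the log2 change of 0.30 (SE 0.15) was not called (edgeR adjusted p 0.0823). Upper-quartile scaling (0.35, edgeR adjusted p 0.0400) and total-count scaling (0.43, adjusted p 0.0129) gave a call. IMMP2L, a mitochondrial inner membrane peptidase gene, had 1.02 and 1.03 CPM (edgeR adjusted p 0.997). Called fragile-site genes described above include LRP1B and CSMD3, which rose, and NEGR1 and TENM3, which fell.

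Promoter sequences were found for 255 of the 308 members, and in 167 of them the RefSeq start lay within 1 kb of the end of the gene in the table. The median CpG observed over expected ratio was 0.67 for 54 called-higher members, 0.79 for 65 called-lower members and 0.77 for 15313 coding genes. Both strands were searched for short motifs. The antioxidant response element core, TGACNNNGC, was in 6 called-higher members (11.1%), 17 called-lower members (26.2%), 16.9% of all members and 14.3% of coding genes. The AP-1 motif TGACTCA was in 3.70%, 0% and 2.35% of called-higher, called-lower and all members (coding genes 3.67%), and TGACGTCA, the cyclic AMP response element, in 3.70%, 1.54% and 1.57% (coding genes 2.64%). TATAAA was in 11.1%, 6.15% and 8.24% (coding genes 9.59%). The p53 decamer, a single arm of the p53 response element, was in 9.26%, 9.23% and 9.41% (coding genes 5.92%), and a pair of decamers was in none of the 255 members and in 3 coding genes. A match is a description of these letters in a window of 300 bases, not a binding site.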

How the data were processed

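The labels' protocols describe unstranded, poly(A)-selected TruSeq libraries of AC16 monolayers. The deposited table holds whole-number counts per gene in 6 libraries with exon coordinates, made by the authors. STAR, SAMtools, Subread and featureCounts, and the build hg38 (GRCh38), stand in the submitters' processing notes with no versions. Which annotation release was used, and how overlapping or multiply mapped reads were handled, are not given in the sources used here. Gene types came from GENCODE v29 by identifier: 58179 of 58299 were found, and 301 of the 308 members had the same start and end. Of the members, 3 have no symbol and 1 (LINC02694) is coding in v29 but has a noncoding current symbol.

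Depth was 17150259 to 20193957 counts per library. Chi-square over degrees of freedom was 3.00 to 4.01 between replicates of a group, above sampling noise. Low genes were removed by filterByExpr (minimum count 10, by group) and the rest scaled by TMM (factors 0.951 to 1.05) and tested by group alone with glmQLFit and glmQLFTest of edgeR 4.0.16 in R 4.3.3, with Benjamini-Hochberg adjustment over 15575 genes and a threshold of 0.05. The procedure was tested on simulated data. The fitted log2 change uses a prior count of 0.125, and its SE is the change over the root of F. RPKM is CPM per kb of the table's exonic length. Intervals of count ratios are exact 95% binomial, and ratios against 0 use a floor of 3 counts over the group. Motifs were searched in 300 bases of RefSeq promoters. Exon overlap used bedtools 2.31.1, and other steps Python 3.11.15.

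The members and lists were chosen with earlier results of these data known. Named by rule were the 12 largest increases and 12 largest decreases among called members with at least 1 CPM on average and groups that do not overlap, the 8 longest and the 6 best expressed tested members, up to 3 members with the largest change of each list, and 20 fixed genes, of which 1 (TEAD1, 270 kb) is no member. A few of these are not reported here. Of 62 named members tested, 32 were higher and 20 lower. Alternatives covered the scaling (RLE, upper-quartile, total-count), the filter (none, or at least 1 CPM in 3 libraries), DESeq2 1.42.0, limma-voom (limma 3.58.1), a replicate block, each library left out, an adjusted p of 0.01, glmTreat against 1.5-fold, other spans, and members of at least 1 CPM. Members other than those with no control library at the filter's limit, and the comparison with olfactory receptor genes, were added after seeing the data.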

Additional observations from a re-analysis of the deposited data

How the results depend on the processing

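The members' counts stayed close to 65 higher and 74 lower: 60 to 75 were called higher and 70 to 77 lower with RLE, upper-quartile or total-count scaling, DESeq2, limma-voom, the replicate block or without any single library. More members were lower than higher in these except with total-count scaling (74 higher, 70 lower) and without control replicate 3 (75 each). The replicate block gave 62 higher and 74 lower and a median of -0.07. Correlations between same-numbered libraries were -0.02, -0.01 and -0.01, so the numbers did not pair them. The filter mattered most: with no filter, 120 members were called higher and the members' median was 0.87 (all tested genes 0.51), since near-silent members entered. With at least 1 CPM in 3 libraries the medians were -0.15 and 0.011, and 39.0% of the members' calls were higher against 46.8% otherwise. Members of at least 1 CPM had 39 higher and a median of -0.19, and members other than the 29 with no control library at the filter's limit 37 and -0.19.

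Medians near 0 moved with the scaling. With upper-quartile scaling they were 0.078 for all tested genes, -0.016 for the members, and 0.12, 0.097, 0.048, -0.058 and -0.16 from the shortest class to 200 to 500 kb. With total-count scaling they were 0.15, 0.059, and 0.19, 0.17, 0.12, 0.016 and -0.081, and 63.8% of all calls were higher against 50.8%. RLE scaling and DESeq2 gave 0.021 for all tested genes. With no filter the classes had 0.36, 0.18, 0.12, 0.0047 and 0.060, and with at least 1 CPM the class of 200 to 500 kb had -0.24. Leaving out 1 library gave -0.048 to 0.053 for the members, 0.018 to 0.032 for all tested genes, and 0.042 to 0.077, 0.036 to 0.052, -0.0087 to 0.0055, -0.11 to -0.078 and -0.21 to -0.17 for the classes. The members' median was above 0 without control replicate 3 (0.053) or treated replicate 1 (0.013). The cause was not tested.

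With glmTreat against 1.5-fold, 1852 of all tested genes were higher and 1141 lower, and 41 and 40 members. A span over 400 kb gave 128 lower and a median of -0.11, and a span over 1000 kb gave 14 higher, 9 lower and 0.31. No tested member had more than 50% of its exon bases in another gene, so leaving such members out changed nothing. The change of RUNX1 turned to 0.12 with total-count scaling. Of the 62 named members, 62 kept direction and call with RLE scaling, DESeq2, limma-voom and the replicate block. For the 116 untested members counts alone are given.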
